A study of Mus musculus with 20 samples.

Results

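Immediate early genes are switched on within minutes of a stimulus, because their transcription needs no new protein synthesis, and most of them encode transcription factors. Fos, Fosb, Jun and Junb encode subunits of the AP-1 dimer, Egr1 a zinc finger factor, Atf3 a stress-induced bZIP factor of the ATF/CREB family, and Ier3 a short-lived regulator of survival signalling. Nr4a1, Nr4a2 and Nr4a3 encode orphan nuclear receptors whose activity is set largely by how much of them is made. In kidney, this class of genes is known for its transient induction in tubules after ischaemic or toxic injury.

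These 10 genes were taken by symbol from the 55471 gene identifiers measured in whole mouse kidney by RNA-seq, and all 10 were found and passed the filter on low counts in every comparison. Ubiquitous TERTci, a TERT protein without catalytic activity, was induced through actin-rtTA and tetOp-TERTci in 3 i-TERTci mice, and the 4 actin-rtTA+ controls carried actin-rtTA alone. These females of mixed background, 2 months old, all drank doxycycline at 2 mg/ml in 5% sucrose for 15 days and were examined after 8 further days without it. In the other experiment, 3 TERT KO/KO and 3 TERT WT/WT mice received Adriamycin (ADR, a podocyte toxin) intravenously at 12 mg/kg, and 3 TERT KO/KO and 4 TERT WT/WT mice received saline. These were females aged 2 months, the TERT deletion had been backcrossed for 10 generations to Balb/c and the TERT WT/WT mice were littermates, and kidneys were collected 18 days after the injection. Because whole kidney was sequenced, a change in RNA per cell and a change in the number of cells that express a gene cannot be told apart.

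The 20 libraries held 39323498 to 48399322 counts. TERT KO/KO ADR replicate 2 had 261230 CPM (counts scaled to library size) of Alb, the albumin gene of hepatocytes, against at most 82.9 CPM in any other library, and 0.0418 CPM of the podocyte gene Nphs1. Lrp2, the endocytic receptor of proximal tubules, had 4.81 CPM there and 551 to 3710 CPM elsewhere. The library was left out, so that TERT KO/KO ADR rests on 2 mice, and values below come from the other 19 libraries. Tert itself had 1070, 1086 and 230 counts in i-TERTci replicates 1, 2 and 3 against 87 to 164 in actin-rtTA+ mice. In the ADR experiment Tert had 210 and 105 counts in the 2 TERT KO/KO ADR libraries, 51 to 132 in TERT KO/KO saline, 164 to 379 in TERT WT/WT ADR and 122 to 187 in TERT WT/WT saline. These are counts over the whole gene, so they do not separate the deleted part from the rest.

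The sequence before the transcription start is shown for the Nr4a genes, Fos and Jun, because the Nr4a genes held more copies of 1 motif there than the other members. RefSeq (GRCm38.p6) gave the 250 bases before the start for 9 of the 10 genes, all but Egr1. Capitals mark TGACG on either strand, written CGTCA where it lies on the other one, the 5-base core shared by the cyclic AMP response element and related ATF/CREB sites. The Nr4a3 window is printed only up to its first exon in GENCODE M21, which holds the other 152 bases and 1 further copy.
Nr4a1: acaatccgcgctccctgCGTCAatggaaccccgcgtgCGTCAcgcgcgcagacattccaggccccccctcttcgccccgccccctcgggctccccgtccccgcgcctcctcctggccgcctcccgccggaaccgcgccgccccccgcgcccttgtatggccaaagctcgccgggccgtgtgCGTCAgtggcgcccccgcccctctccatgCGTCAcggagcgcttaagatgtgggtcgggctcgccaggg
Nr4a2: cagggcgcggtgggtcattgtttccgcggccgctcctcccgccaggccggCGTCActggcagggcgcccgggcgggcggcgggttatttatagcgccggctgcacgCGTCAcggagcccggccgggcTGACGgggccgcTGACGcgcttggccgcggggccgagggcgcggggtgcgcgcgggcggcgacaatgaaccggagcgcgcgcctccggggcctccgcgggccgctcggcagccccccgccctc
Nr4a3: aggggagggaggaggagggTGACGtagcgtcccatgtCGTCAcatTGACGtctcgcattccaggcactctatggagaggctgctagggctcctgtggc
Fos: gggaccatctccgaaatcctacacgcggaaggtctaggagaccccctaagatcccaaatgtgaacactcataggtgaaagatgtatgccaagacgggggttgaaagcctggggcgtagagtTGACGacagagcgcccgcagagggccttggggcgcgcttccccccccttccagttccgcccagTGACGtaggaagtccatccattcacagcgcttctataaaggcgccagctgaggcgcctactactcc
Jun: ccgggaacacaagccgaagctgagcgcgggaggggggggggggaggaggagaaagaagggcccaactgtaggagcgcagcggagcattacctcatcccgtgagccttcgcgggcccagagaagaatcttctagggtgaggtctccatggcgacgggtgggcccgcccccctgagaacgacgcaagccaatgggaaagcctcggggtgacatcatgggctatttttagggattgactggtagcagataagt
The Nr4a1 window lay at chr15:101266596-101266845 on the plus strand, that of Nr4a2 at chr2:57124004-57124253 on the minus strand, and the printed part of Nr4a3 at chr4:48045055-48045152 on the plus strand. The Fos window lay at chr12:85473640-85473889 on the plus strand and that of Jun at chr4:95052223-95052472 on the minus strand.

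Each of the 3 Nr4a windows held 4 copies of TGACG, a number reached by 0.137% of 32851 promoters of the same length. Fos held 2, and 3.9% of promoters held as many or more. Fosb, Junb and Atf3 held 1, and Jun and Ier3 held none. The Atf3 copy lay in the last 7 bases of its window, which GENCODE M21 places in an exon. At least 1 copy was found in 7 of the 9 genes and in 17.8% of all promoters. The full palindrome TGACGTCA, which contains the core, was in none of the 9 windows and in 1.55% of promoters. TGANTCA, the consensus of AP-1 sites, was in none of them and in 6.75% of promoters, and the CArG box bound by serum response factor was in none and in 1.47%. GCGNGGGCG, the motif of EGR factors, was found in 3 windows (Fosb, Nr4a1 and Nr4a2) and in 4.7% of promoters, and TATAAA in 2 (Fos and Nr4a2) and in 12.4%. Both strands were searched, and a match describes the letters only. Bases farther upstream and the Egr1 promoter were not searched, so an absence holds for these windows only.

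**Figure D1:**
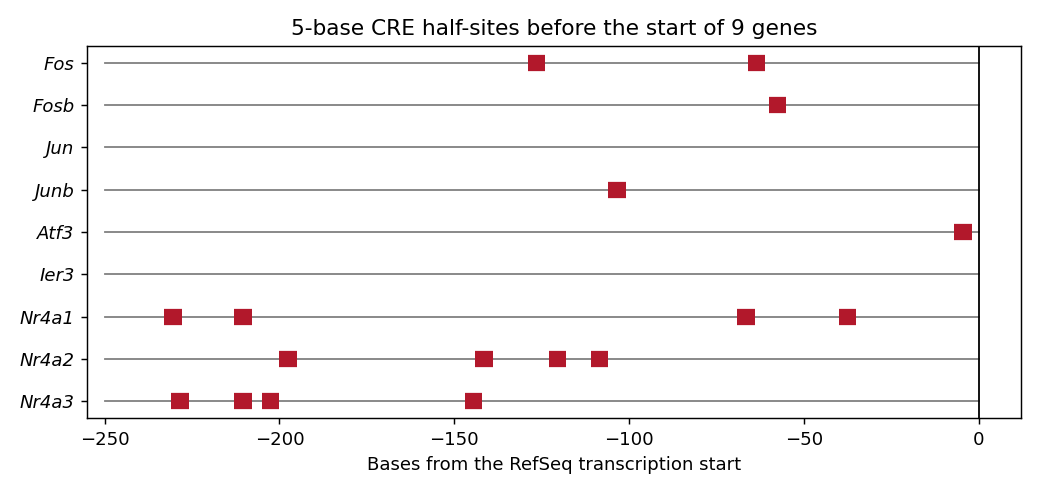
Positions of the 5-base core of the cyclic AMP response element, on either strand, in the 250 bases before the RefSeq transcription start of 9 genes. The horizontal axis is the distance from the start in bases and each red block is 1 match. Nr4a1, Nr4a2 and Nr4a3 have 4 each, and Jun and Ier3 have none.

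Fos and Fosb, whose proteins pair with Jun proteins, were nearly silent in control kidneys and, with Atf3, had the largest fitted changes after ADR. Fos stood at 6.29 and 14.2 CPM in TERT KO/KO ADR replicates 1 and 3, against 0.416, 0.422 and 0.770 CPM in TERT KO/KO saline. It stood at 1.39, 8.89 and 11.6 CPM in TERT WT/WT ADR, against 0.724, 0.718, 1.06 and 0.983 CPM in TERT WT/WT saline. Both ADR groups lay wholly above their saline groups, with TERT WT/WT ADR replicate 1 just above the saline range. The share of all genes that separate between ADR and saline groups is not given. This position and those in the next paragraphs thus describe these mice only. Between i-TERTci and actin-rtTA+ mice, 8.55% of genes were higher without overlap. In i-TERTci mice Fos had 6.83, 1.54 and 5.88 CPM, against 0.350, 0.826, 0.659 and 0.848 CPM in actin-rtTA+ mice. Replicate 2 was again the lowest of its group, yet above each control.

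Fosb had 3.87 and 3.95 CPM in TERT KO/KO ADR mice against 0.165 to 0.338 CPM in TERT KO/KO saline, and 0.430, 3.28 and 3.95 CPM in TERT WT/WT ADR mice against 0.181 to 0.294 CPM in TERT WT/WT saline. It had 4.51, 0.523 and 1.06 CPM in i-TERTci mice against 0.283 to 0.439 CPM in actin-rtTA+ mice. The 3 pairs of groups did not overlap, but i-TERTci mice spread over a wide range, with a mean of 2.03 ± 2.16 CPM (SD, n = 3).

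Jun and Junb were expressed in every control kidney. Jun had 66.0 and 149 CPM in TERT KO/KO ADR mice against 25.4 to 30.4 CPM in TERT KO/KO saline, and 47.6, 141 and 123 CPM in TERT WT/WT ADR mice against 31.4 to 40.8 CPM in TERT WT/WT saline. In i-TERTci mice it had 144, 33.4 and 89.4 CPM against 23.8 to 36.4 CPM in actin-rtTA+ mice, so that replicate 2 fell inside the control range. Junb had 64.3 and 76.0 CPM in TERT KO/KO ADR mice against 25.5 to 30.7 CPM in TERT KO/KO saline. It had 50.5, 125 and 115 CPM in TERT WT/WT ADR mice against 16.6 to 26.3 CPM in TERT WT/WT saline, and 133, 36.5 and 93.8 CPM in i-TERTci mice against 22.2 to 27.5 CPM in actin-rtTA+ mice. Junb was thus above the controls in each treated or induced mouse. Per kilobase of exon, Junb averaged 38.1 CPM in i-TERTci mice and 10.9 CPM in actin-rtTA+ mice, and Jun 27.9 and 9.18 CPM in the same groups, against 2.02 and 0.285 CPM for Fos and 0.325 and 0.0556 CPM for Fosb.

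Egr1 had 28.4 and 74.3 CPM in TERT KO/KO ADR mice against 6.27 to 7.29 CPM in TERT KO/KO saline, and 13.6, 57.6 and 62.8 CPM in TERT WT/WT ADR mice against 6.17 to 7.50 CPM in TERT WT/WT saline. It had 75.6, 17.5 and 56.3 CPM in i-TERTci mice against 3.72 to 10.6 CPM in actin-rtTA+ mice. No pair of groups overlapped. Atf3 had 13.6 and 20.6 CPM in TERT KO/KO ADR mice against 0.478 to 1.32 CPM in TERT KO/KO saline, and 4.16, 24.4 and 21.3 CPM in TERT WT/WT ADR mice against 1.16 to 1.82 CPM in TERT WT/WT saline. In i-TERTci replicates 1 and 3 Atf3 had 25.4 and 13.6 CPM, while the 2.01 CPM of replicate 2 lay inside the control range of 0.942 to 2.04 CPM.

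Ier3 was the most abundant member per kilobase in saline kidneys, with 20.7 CPM per kilobase in TERT KO/KO saline and 29.1 in TERT WT/WT saline. It had 66.7 and 102 CPM in TERT KO/KO ADR mice against 18.7 to 26.8 CPM in TERT KO/KO saline. In TERT WT/WT ADR mice it had 25.0, 65.6 and 84.7 CPM, and 26.8 to 36.3 CPM after saline, so that replicate 1 was below all its controls. i-TERTci mice had 77.2, 36.2 and 48.3 CPM and actin-rtTA+ mice 31.5 to 45.8 CPM.

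All 3 Nr4a receptor genes lay above their saline range in both TERT KO/KO ADR mice. The share of all genes that separate in this way between the small ADR and saline groups, or between genotypes after ADR, is not given. The positions below thus describe these mice only. Nr4a1 had 29.5 and 35.4 CPM in TERT KO/KO ADR mice against 4.59 to 5.34 CPM in TERT KO/KO saline, and 6.81, 12.6 and 22.9 CPM in TERT WT/WT ADR mice against 5.53 to 6.92 CPM in TERT WT/WT saline. The 2 TERT KO/KO ADR mice were above all TERT WT/WT ADR mice. In i-TERTci mice it had 25.3, 10.1 and 17.0 CPM against 3.57 to 7.74 CPM in actin-rtTA+ mice. Nr4a3 had 2.11 and 1.34 CPM in TERT KO/KO ADR mice against 0.253 to 0.302 CPM in TERT KO/KO saline, while TERT WT/WT ADR mice had 0.406, 0.606 and 1.00 CPM and their saline group 0.465 to 0.619 CPM. TERT KO/KO ADR mice again lay above TERT WT/WT ADR mice, and TERT WT/WT ADR overlapped its own saline group. The 2.97, 1.59 and 1.34 CPM of Nr4a3 in i-TERTci mice were all above the 0.175 to 0.377 CPM of actin-rtTA+ mice. These are low levels, with 61 to 178 raw counts in i-TERTci libraries and 8 to 16 in actin-rtTA+ libraries. Nr4a2 had 2.40 and 1.87 CPM in TERT KO/KO ADR mice against 0.844 to 1.43 CPM in TERT KO/KO saline, and 1.44 to 1.82 CPM in TERT WT/WT ADR mice against 1.09 to 1.16 CPM in TERT WT/WT saline. In i-TERTci mice the 0.801, 2.04 and 1.54 CPM of Nr4a2 gave another order than the rest, since replicate 2 was the highest and replicate 1 lay inside the control range of 0.742 to 1.08 CPM.

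**Figure D2:**
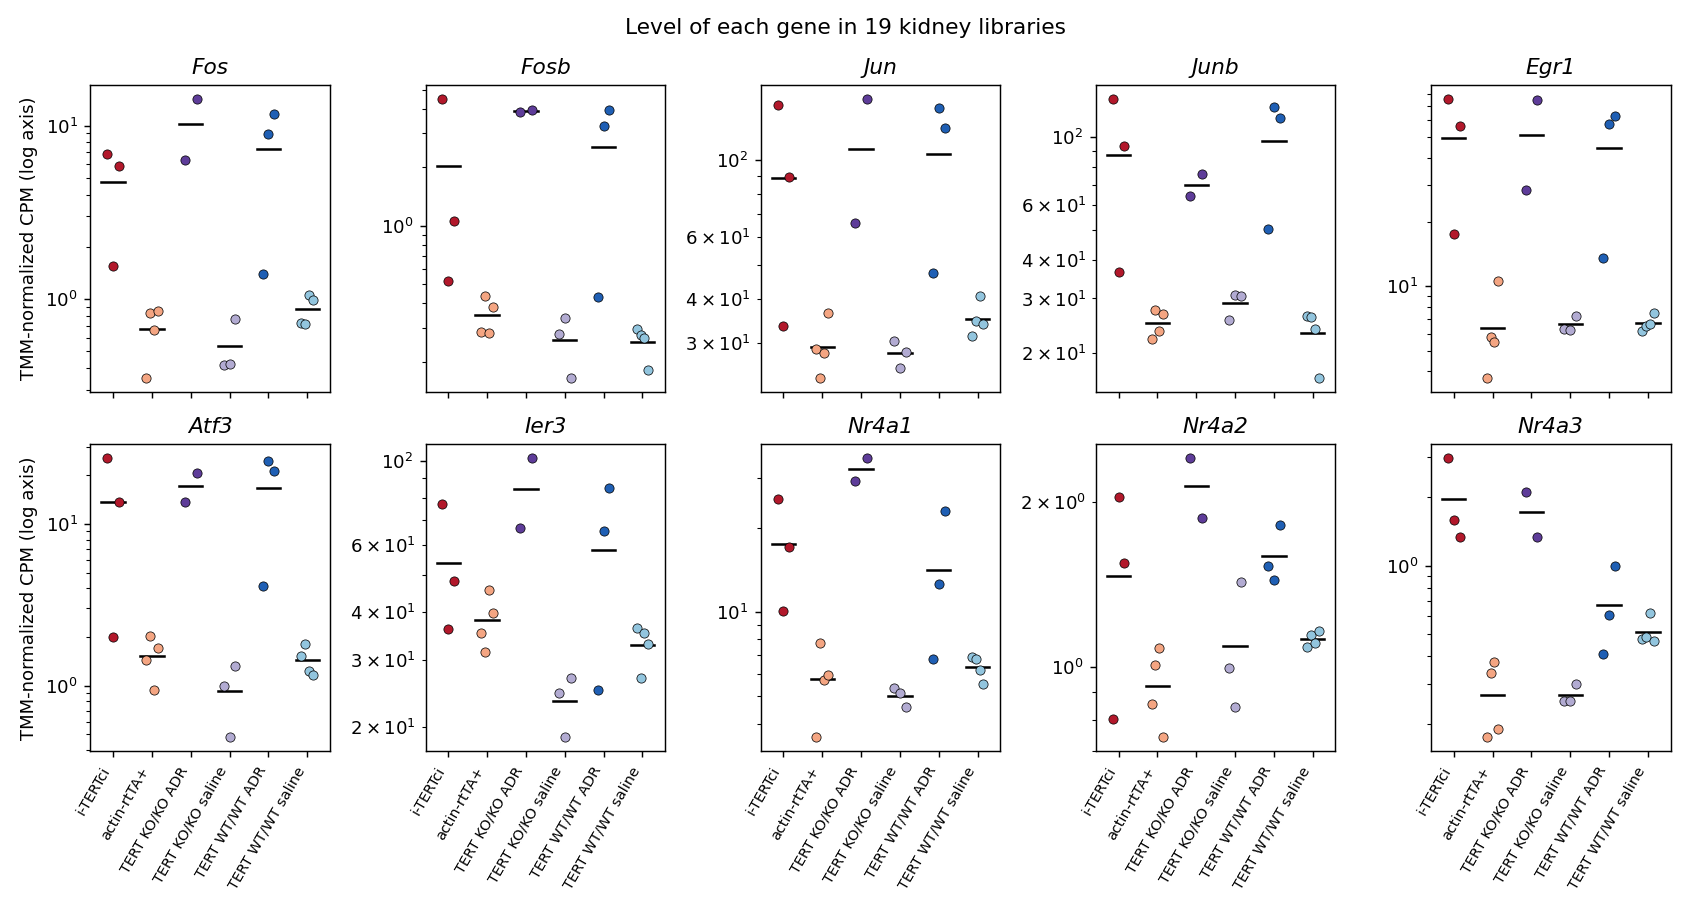
Level of the 10 genes in 19 kidney libraries, as TMM-normalized CPM on a log axis. Each point is 1 mouse and each bar the group mean. Both TERT KO/KO ADR mice sit above their controls in every panel, while in most panels 1 i-TERTci mouse and 1 TERT WT/WT ADR mouse sit close to theirs. The share of all genes with such a separation in TERT KO/KO mice is not given.

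ADR was compared with saline in each genotype to find genes that remained changed 18 days after injury. In TERT KO/KO mice, 9 of the 10 members were higher and none lower, where 3.83% of all 19023 genes tested were higher and 1.43% lower by the same rule (edgeR quasi-likelihood test, Benjamini-Hochberg adjusted p under 0.05). The largest log2 fold changes were those of Fos (4.26 ± 0.70, SE), Atf3 (4.20 ± 0.62) and Fosb (3.90 ± 0.67), with adjusted p of 0.00601 to 0.00897. Egr1 had 2.96 ± 0.52 (adjusted p = 0.0113), Nr4a1 2.69 ± 0.35 (0.00392) and Nr4a3 2.67 ± 0.39 (0.00573). Jun rose by 1.94 ± 0.39 (adjusted p = 0.0184), Ier3 by 1.85 ± 0.38 (0.0206) and Junb by 1.28 ± 0.31 (0.0344). Nr4a2 had 0.97 ± 0.27 and missed the threshold (0.0528). The median was 2.68, beside 0.0065 over all genes. With 2 mice after ADR the count depended on single libraries, as did that of all genes, at 1001 in the main fit. Without TERT KO/KO saline replicates 1, 2 and 3 it was 3, 5 and 4, beside 217, 213 and 177 of all genes. With the left-out library put back it was 4, beside 295 of all genes. Jun, Junb, Ier3 and Egr1 each lost the call when any 1 of these 3 saline libraries was left out (adjusted p = 0.0521 to 0.108). Without TERT KO/KO ADR replicate 3, which leaves 1 mouse, their log2 fold changes were 1.24, 1.15, 1.52 and 2.10. Junb lost it under 11 of 21 alternatives, among them without TERT KO/KO ADR replicate 1 (adjusted p = 0.0583) or TERT WT/WT saline replicate 1, 2 or 3 (0.0519 to 0.0549), with no filter (0.106) and in the fit of all 19 libraries (0.0858). Jun and Ier3 were also lost with no filter (adjusted p = 0.0643 and 0.0686). Fos was lost without TERT KO/KO saline replicate 1 (0.05002) and Fosb without replicate 1 or 3 (0.05002 and 0.0547). With the left-out library put back, Fosb, Jun, Junb, Ier3 and Nr4a1 were lost (adjusted p = 0.0536 to 0.320). Nr4a2 was called with replicate 1 or 3 of TERT WT/WT ADR left out (0.0244 and 0.0461), with DESeq2 (0.0119) and with the 1 CPM filter (0.0443). All genes called were 3393 and 1502 without replicate 1 or 3 and 2196 with DESeq2. Atf3 was called under all 21 alternatives, and Nr4a3 under all 20 that tested it.

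In TERT WT/WT mice, 7 members were higher after ADR than after saline and none was lower, where 15.2% of all genes were higher and 12.0% lower by the same rule. The log2 fold change was 3.54 ± 0.50 for Atf3, 3.33 ± 0.56 for Fosb, 3.08 ± 0.57 for Fos, 2.74 ± 0.44 for Egr1 and 2.07 ± 0.26 for Junb, with adjusted p of 0.000930 to 0.00385. Jun had 1.57 ± 0.33 (adjusted p = 0.00669) and Nr4a1 1.16 ± 0.29 (adjusted p = 0.0140). Ier3, Nr4a2 and Nr4a3 did not pass, at 0.84 ± 0.32 (adjusted p = 0.0689), 0.51 ± 0.22 (0.106) and 0.41 ± 0.33 (0.361). The median over the 10 members was 1.82, beside 0.0074 over all genes tested. The Nr4a1 call was lost without TERT WT/WT ADR replicate 3 (adjusted p = 0.0652), with TERT KO/KO ADR replicate 2 put back (0.223) and with a block for replicate number (0.0603). Ier3 was called without TERT WT/WT ADR replicate 1, at 1.20 (adjusted p = 0.000221), with DESeq2 (0.0330) and with limma voom (0.0012). All genes called were 7810 without that library and 9248 with limma voom, against 5164 in the main fit.

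The 2 genotypes were then compared directly. After ADR, no member separated TERT KO/KO from TERT WT/WT kidneys, where 0.0736% of genes did (14 of 19023). An unadjusted p under 0.05 was reached by 2 members and 7.66% of genes. They were Nr4a3, with a log2 fold change of 1.34 ± 0.36 (95% interval 0.55 to 2.13, adjusted p = 0.329), and Nr4a1, with 1.20 ± 0.34 (0.46 to 1.93, adjusted p = 0.366). For Jun, Egr1 and Atf3 the intervals of the difference ran from -0.80 to 0.90, from -0.90 to 1.29 and from -1.15 to 1.23. Without TERT WT/WT ADR replicate 3 Nr4a1 was called, at 1.74 (edgeR adjusted p = 0.0223), beside 23 of all genes. Junb was called without replicate 1, at -0.78 (edgeR adjusted p = 0.0392), beside 782 of all genes.

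After saline, no member separated the genotypes either, and 1 of all genes did (0.00526%). An unadjusted p under 0.05 was reached by 1 member, Nr4a3, and by 8.79% of genes. Nr4a3 averaged 0.270 ± 0.0280 CPM in TERT KO/KO saline mice (SD, n = 3) and 0.511 ± 0.0721 CPM in TERT WT/WT saline mice (SD, n = 4), without overlap (log2 fold change -0.91 ± 0.37, edgeR adjusted p = 0.564). Jun, Ier3, Nr4a1 and Nr4a3 were lower in each TERT KO/KO saline mouse than in any TERT WT/WT saline mouse, and 6.35% of genes had such a pattern.

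The effect of ADR in TERT KO/KO minus that in TERT WT/WT mice was called for no member and for 0 genes (0%) by edgeR, where 2 members and 2288 genes (12.0%) were at an unadjusted p under 0.05. Nr4a3 had the widest difference, with a log2 value of 2.25 ± 0.52 (95% interval 1.13 to 3.37, unadjusted p = 0.000836, adjusted p = 0.265), followed by Nr4a1 with 1.53 ± 0.46 (0.54 to 2.53, adjusted p = 0.308). Junb was on the other side, at -0.79 ± 0.41 (-1.68 to 0.09). DESeq2 called 138 genes and 1 member, Nr4a3 (adjusted p = 0.0367). With edgeR, Nr4a1 was called without TERT WT/WT ADR replicate 3, at 2.09 (adjusted p = 0.0277), beside 32 of all genes. Junb was called without replicate 1, at -1.10 (edgeR adjusted p = 0.0401), beside 325 of all genes.

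**Figure D3:**
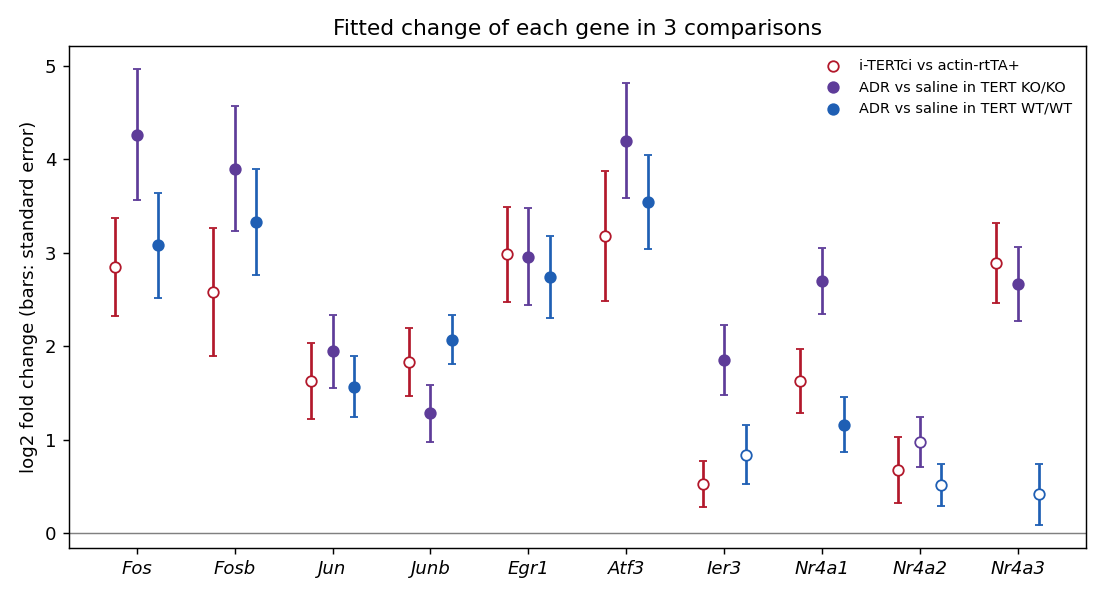
Fitted log2 fold change of each gene in 3 comparisons, with bars for the standard error. Filled points passed an adjusted p under 0.05 and open points did not; Nr4a3 reaches 2.67 with ADR in TERT KO/KO kidneys and 0.41 in TERT WT/WT kidneys.

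In i-TERTci mice, examined after the TERTci pulse, the fitted log2 changes of the 10 members ran from 0.52 to 3.18 but none passed, where 1 of 17745 genes did (0.00564%). At an unadjusted p under 0.05 there were 8 members, beside 22.4% of all genes. The log2 fold changes were 3.18 ± 0.69 for Atf3, 2.98 ± 0.51 for Egr1, 2.89 ± 0.43 for Nr4a3, 2.85 ± 0.52 for Fos and 2.58 ± 0.68 for Fosb, with adjusted p of 0.0758 to 0.0903. Junb, Nr4a1 and Jun had 1.83 ± 0.36, 1.63 ± 0.34 and 1.63 ± 0.41, and Nr4a2 and Ier3 0.68 ± 0.35 and 0.52 ± 0.25. The groups did not overlap for 6 members (Fos, Fosb, Junb, Egr1, Nr4a1 and Nr4a3), all higher in i-TERTci mice, as for 8.55% of genes. DESeq2, limma voom with quality weights and the fit of all 19 libraries each called 8 members, beside 1934, 6039 and 2166 of all genes. Without i-TERTci replicate 2, 9 members were called beside 4325 of all genes.

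The i-TERTci effect minus that of ADR in TERT WT/WT kidneys was called by edgeR for no member and for 0.00505% of genes. An unadjusted p under 0.05 was reached by 1 member and 7.16% of genes. That member was Nr4a3, with a log2 value of 2.46 ± 0.52 (95% interval 1.36 to 3.57, edgeR adjusted p = 0.186). DESeq2 and limma voom called it (adjusted p = 0.0119 and 0.0161), beside 60 and 2101 of all genes. For Jun, Egr1 and Atf3 the intervals ran from -1.13 to 1.21, from -1.25 to 1.70 and from -2.23 to 1.48. The 2 experiments differ in background and treatment, so this difference also holds whatever separates them.

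Genes of injured tubules were summed in the same mice. The summed CPM of 8 such genes was 18704, 1375 and 12129 in i-TERTci replicates 1, 2 and 3, against 1411 to 1645 in actin-rtTA+ mice, and 7063 and 14263 in TERT KO/KO ADR mice, against 1215 to 1516 in TERT KO/KO saline. It was 3927, 22311 and 20429 in TERT WT/WT ADR mice against 1368 to 1557 in TERT WT/WT saline. Of the 8 genes 6 were higher with ADR in TERT KO/KO kidneys and all 8 in TERT WT/WT kidneys. Spp1, 1 of the 8, weighed most in these sums, with means of 8291 CPM in i-TERTci mice and 1293 CPM in actin-rtTA+ mice. i-TERTci replicate 2 was at the control level in this sum. Of single genes in the list, Lcn2 (10.7 CPM) and Havcr1 (184 CPM) were within the actin-rtTA+ range there. Yet 7 members in replicate 2 were above every actin-rtTA+ mouse, as were 19.1% of genes. The same mouse had 1086 counts of Tert, as many as replicate 1. Of 10 macrophage genes 3 rose with ADR in TERT KO/KO kidneys and 9 in TERT WT/WT kidneys. Their summed CPM was 1892, 197 and 869 in i-TERTci mice against 146 to 204 in actin-rtTA+ mice, 207 and 674 in TERT KO/KO ADR mice against 168 to 196 in TERT KO/KO saline, and 326 to 831 in TERT WT/WT ADR mice against 164 to 220 in TERT WT/WT saline. The part of these cell states in the levels of the 10 genes was not tested.

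**Figure D4:**
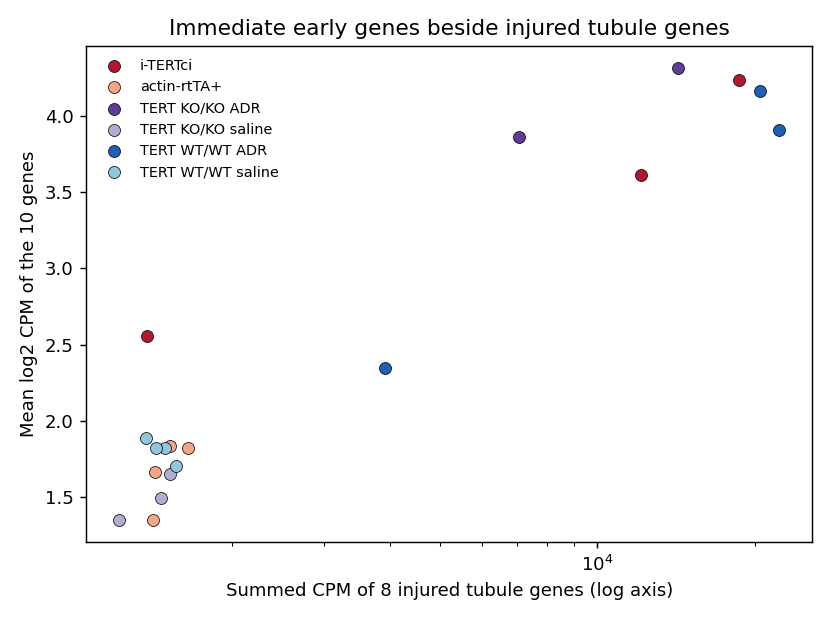
Mean log2 CPM of the 10 genes against the summed CPM of 8 injured tubule genes (log axis), 1 point per mouse. Spp1 weighs most in that sum. The i-TERTci mouse at 1375 CPM lies among the controls on the horizontal axis and above them, at a mean of 2.56, on the vertical axis.

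After the group means were subtracted, the log2 level of Fos correlated with that of 6 of the 9 other members over 19 libraries (adjusted p under 0.05, two-sided permutation within groups, adjusted over 9 relations), and the same 6 passed by rank. The share of all genes that would pass this rule with Fos was not counted, so the 6 cannot be said to set the members apart from other genes. For Egr1 Pearson r was 0.95 (adjusted p = 0.00036) and Spearman rho 0.92 (adjusted p = 0.00054). For Jun, Junb, Atf3, Ier3 and Nr4a1 r was 0.85, 0.82, 0.83, 0.86 and 0.83 (permutation, adjusted p = 0.0199 to 0.0247) and rho 0.66 to 0.84 (adjusted p = 0.0227 to 0.0438). Fosb, Nr4a3 and Nr4a2 did not pass, with r of 0.76 (adjusted p = 0.0616), 0.50 (0.202) and -0.22 (0.572) and rho of 0.51 (0.173), 0.42 (0.231) and -0.12 (0.697). Without i-TERTci replicate 2 and TERT WT/WT ADR replicate 1, the 2 libraries farthest from the median of Fos, r was 0.89 for Egr1 and 0.61 to 0.71 for the other 5 that passed. The count of 6 became 1 without i-TERTci replicate 2 or TERT WT/WT ADR replicate 1, and 3 without i-TERTci replicate 1 or 3 or TERT KO/KO ADR replicate 1 or 3. Within the i-TERTci experiment Junb, Egr1 and Nr4a1 passed (r = 0.92, 0.94 and 0.92, n = 7, permutation, adjusted p = 0.0409 each). Within the ADR experiment Egr1 and Ier3 did (r = 0.96 and 0.95, n = 12, permutation, adjusted p = 0.0499 each), and no rho passed in either experiment. In the i-TERTci and ADR mice alone, r for the 7 members other than Nr4a2 and Nr4a3 was 0.88 to 0.99 (n = 8, permutation, adjusted p = 0.0313 to 0.0348, where the smallest unadjusted p possible is 0.0139). By rank only Fosb, Egr1 and Ier3 passed in these mice (permutation, adjusted p = 0.0417 each), and Jun, Junb, Atf3 and Nr4a1 had 0.0527. Without the 2 farthest libraries, r of the 7 in these mice ran from 0.54 for Fosb to 0.96 for Egr1. In the 11 control mice no r passed, and that of Egr1 was 0.73 (permutation, adjusted p = 0.452).

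Other genes of the same response were counted in lists of related genes. Of 10 other AP-1 and Maf genes, 3 rose with ADR in TERT KO/KO kidneys and 5 in TERT WT/WT kidneys, and none was called in i-TERTci mice, with list medians of 0.69, 0.88 and 0.91 in those comparisons. Fosl1, which encodes the AP-1 subunit FRA1, averaged 5.85 ± 0.121 CPM in TERT KO/KO ADR mice (SD, n = 2) and 0.0821 ± 0.0588 CPM in TERT KO/KO saline mice (SD, n = 3), and 6.14 ± 4.44 CPM in TERT WT/WT ADR mice (SD, n = 3) and 0.0457 ± 0.0183 CPM in TERT WT/WT saline mice (SD, n = 4). Saline libraries held only 1 to 5 raw counts of Fosl1 in TERT KO/KO and 1 to 3 in TERT WT/WT mice, so no fold is given. Both comparisons passed (edgeR adjusted p = 0.00390 in TERT KO/KO and 0.000646 in TERT WT/WT mice). Maff rose by 2.41 ± 0.40 in TERT KO/KO kidneys and by 2.86 ± 0.34 in TERT WT/WT mice, and Fosl2 by 1.41 ± 0.30 and 1.34 ± 0.26.

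Of 19 other immediate early genes tested, 13 rose with ADR in TERT KO/KO kidneys, and 14 rose and 1 fell (Tiparp) in TERT WT/WT kidneys. Egr2, an EGR factor, rose by 4.58 ± 0.62 in TERT KO/KO kidneys and by 3.79 ± 0.50 in TERT WT/WT mice, and had 12 to 678 raw counts in i-TERTci libraries against 1 to 10 in actin-rtTA+ libraries (edgeR adjusted p = 0.0758). Ccn1, a secreted matrix protein, rose by 3.63 ± 0.54 in TERT KO/KO mice and Arc by 1.83 ± 0.23, while Ier2, Myc and Klf10 rose by 1.13 ± 0.18, 2.49 ± 0.42 and 1.42 ± 0.24 in TERT WT/WT mice.

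Of 19 genes listed as feedback, among them Gadd45a, Plk3 and Pim1, 7 rose with ADR in TERT KO/KO kidneys. In TERT WT/WT kidneys 12 rose and 1 fell (Nab1). Socs3, the inhibitor of cytokine receptor signalling, rose by 2.71 ± 0.44 in TERT KO/KO kidneys and by 3.47 ± 0.37 in TERT WT/WT mice. Dusp1, a phosphatase of MAP kinases, averaged 88.4 ± 9.76 CPM in TERT KO/KO ADR mice (n = 2) and 26.4 ± 0.617 CPM in TERT KO/KO saline mice (n = 3, SD), and rose by 1.75 ± 0.34. In TERT WT/WT mice it averaged 37.1 ± 21.1 CPM after ADR and 34.2 ± 7.66 CPM after saline. The difference of these ADR effects was 1.62 ± 0.45 for Dusp1 and 1.50 ± 0.42 for the kinase gene Plk3, neither of which passed (edgeR adjusted p = 0.289 each).

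Kinases and factors listed as upstream of these genes, together with the nuclear receptor gene Rxra, were counted in the same way. Of 15, none passed with ADR in TERT KO/KO kidneys, while in TERT WT/WT kidneys Mrtfa and Elk4 rose and those that fell included Mapk9, Mapk14 and Rxra. The list medians were 0.10 in TERT KO/KO and -0.11 in TERT WT/WT mice. Among 10 heat shock genes, Hspa1b rose by 0.63 ± 0.16 in TERT KO/KO mice, and Hspb1 rose by 2.44 ± 0.35 and 3 fell in TERT WT/WT mice. None of these lists had a call in i-TERTci mice.

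**Figure D5:**
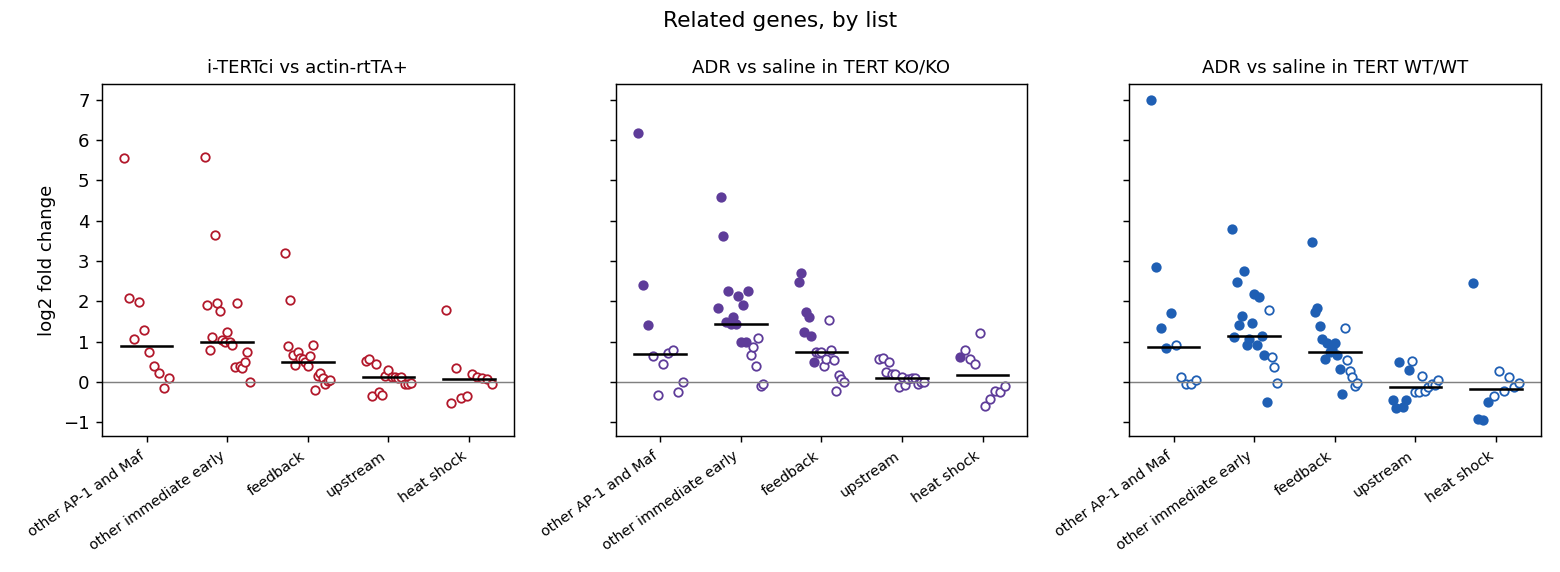
Log2 fold change of single genes in 5 lists, for 3 comparisons. Filled points passed an adjusted p under 0.05, open points did not, and black bars are list medians; for other immediate early genes the medians are 0.99 in i-TERTci mice, 1.45 with ADR in TERT KO/KO kidneys and 1.15 in TERT WT/WT mice.

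Among 14370 other genes that averaged 1 CPM or more, those most like the mean of the 10 members over 19 libraries, each experiment centred on its own mean, included Dusp8, Csf1, Cdkn1a and Slco3a1, each with r = 0.98. This is a description over libraries that share treatments. Dusp8 encodes a phosphatase of MAP kinases and averaged 21.7 ± 7.83 CPM in TERT KO/KO ADR mice and 4.46 ± 0.383 CPM in TERT KO/KO saline mice. Csf1, the growth factor of macrophages, averaged 62.0 ± 30.1 CPM in TERT KO/KO ADR mice and 13.7 ± 0.748 CPM in TERT KO/KO saline mice. Cdkn1a, the cell cycle inhibitor p21, averaged 93.1 ± 0.501 CPM in TERT KO/KO ADR mice and 6.56 ± 1.24 CPM in TERT KO/KO saline mice. In i-TERTci mice it averaged 42.6 ± 30.1 CPM and in actin-rtTA+ mice 7.93 ± 1.33 CPM.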

How the data were processed

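RNA was sequenced from kidneys of 20 mice. The authors checked reads with FastQC, clipped them with Trimmomatic and aligned them with STAR to mm10. The deposited values are raw counts per gene. The counting tool, annotation and strand setting are not given in the sources used here, so reads of antisense genes may be included. Of 55471 identifiers, 55230 matched GENCODE M21. The members and gene lists were chosen with earlier results of these data known.

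Counts were tested with edgeR 4.0.16 (filterByExpr, TMM, robust quasi-likelihood F test) in R 4.3.3, with 7 libraries for i-TERTci, 12 for ADR and 19 for the comparison across experiments. Calls needed a Benjamini-Hochberg adjusted p under 0.05. CPM were TMM-normalized over 19 libraries, except marker sums and the left-out library, which are CPM of total counts. Correlations used log2 CPM (prior count 2) and 100000 permutations. The subsets of treated and of control mice were added after the data were seen. All 10 members were named, with up to 4 genes per list by smallest p, genes that fell, and the 5 nearest in pattern; Elk4, Tiparp, Nab1 and Dusp1 in TERT WT/WT mice were named after their values were seen. The results of 2 other genes are not reported here. Alternatives were median-ratio factors, other filters, DESeq2 1.42.0, limma 3.58.1 voom, a replicate block, fewer or more libraries, and each library left out. The test was tried on simulated counts.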

Additional observations from a re-analysis of the deposited data

Results flagged for a closer look

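Nr4a3 in TERT WT/WT saline replicate 3, at 0.6185 CPM and 28 raw counts, was flagged as high in its group. The other 3 libraries had 0.465 to 0.485 CPM and 18 to 23 raw counts. All 10 members were screened in both groups of 4, and chance marks about 1 in 20 such sets.

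TERT KO/KO ADR replicate 2, the library with 261230 CPM of Alb that entered no group mean, held 3 members above every TERT KO/KO saline library when all were scaled to total counts. Fos had 2.364 CPM there against 0.370 to 0.698 CPM in TERT KO/KO saline, Egr1 had 40.48 CPM against 5.51 to 6.60 CPM, and Atf3 had 1.527 CPM against 0.420 to 1.20 CPM. Below every TERT KO/KO saline library were 5 members. Ier3 had 1.46 CPM there against 16.4 to 24.3 CPM, Nr4a1 1.92 against 4.16 to 5.09 CPM, Junb 20.6 against 24.3 to 27.7 CPM, Nr4a2 0.0837 against 0.741 to 1.295 CPM and Nr4a3 0.209 against 0.222 to 0.274 CPM. Fosb and Jun lay within the saline range. The share of all genes outside that range in this library was not counted, so these positions cannot be called particular to the members. With Alb at 261230 CPM, the CPM of all other genes there are also lowered.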

How the results depend on the processing

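The members called were 6 to 8 under all 21 alternatives for ADR in TERT WT/WT mice and 0 under all 21 for TERT KO/KO against TERT WT/WT after saline. For i-TERTci against actin-rtTA+ the count of members was 1 with no filter and 8 with DESeq2, limma voom or all 19 libraries in 1 fit, and 0 to 9 with 1 library left out. All genes called were then 0 with median-ratio size factors or the 1 CPM filter, 23 with no filter, 1934 with DESeq2, 6039 with limma voom and 2166 with all 19 libraries, and 0 to 4325 with 1 library left out. For ADR in TERT WT/WT mice all genes called were 9248 with limma voom, 894 with TERT KO/KO ADR replicate 2 put back and 1708 to 7810 with 1 library left out. For ADR in TERT KO/KO mice the members called were 4 with that library and 3 to 10 with 1 left out, and all genes called were 2196 with DESeq2, 1560 with limma voom, 1710 with only the groups compared, 555 with all 19 libraries, 295 with TERT KO/KO ADR replicate 2 and 177 to 3393 with 1 left out. Between genotypes after saline all genes called were 6 with no filter, 0 with the CPM filter or TERT KO/KO ADR replicate 2, 22 with DESeq2, 2243 with limma voom, 2 with only the groups compared and 0 to 2 with 1 left out. After ADR they were 41 with no filter, 138 with DESeq2, 4 with limma voom, 1 with the block, 0 with only the groups compared or TERT KO/KO ADR replicate 2, and 0 to 782 with 1 left out, where members called were 0 to 1. For the difference of the ADR effects, members called were 1 with DESeq2 and 0 to 1 with 1 left out, and all genes called 23 with no filter, 138 with DESeq2, 9 with limma voom, 6 with all 19 libraries and 0 to 325 with 1 left out. For the i-TERTci effect minus the ADR effect, members called were 1 with DESeq2 and 1 with limma voom, and all genes called 4 with no filter, 60 with DESeq2, 2101 with limma voom, 2 with the block, 0 with TERT KO/KO ADR replicate 2 and 0 to 35 with 1 left out. Relations of Fos with other members numbered 1 to 7 with 1 library left out. The cause of these changes was not tested.

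Signs turned only for members that were not called. Nr4a3 after ADR in TERT WT/WT mice ran from -0.0105 to 0.67 (log2) with 1 library left out. Between genotypes after saline, Fosb was -0.18 with limma voom, -0.0759 with the block and -0.18 to 0.27 with 1 left out. Egr1 was 0.0049 with the CPM filter, 0.0165 with limma voom, 0.0442 with the block and -0.0869 to 0.0475 with 1 left out, and Nr4a2 was 0.10 with limma voom and -0.28 to 0.11. After ADR, Jun was -0.32 with limma voom and -0.16 with TERT KO/KO ADR replicate 2, Egr1 -0.20 with limma voom, and Atf3 -0.28 and -0.39 under the same 2 settings. Ier3 and Nr4a2 were -0.0316 and -0.0569 with TERT KO/KO ADR replicate 2. With 1 library left out Fos ran from -0.22 to 1.00, Jun from -0.65 to 0.52, Egr1 from -0.65 to 0.73 and Atf3 from -0.42 to 0.41. For the difference of the ADR effects, Egr1 was -0.21 with limma voom and Nr4a2 -0.0219 with TERT KO/KO ADR replicate 2, and with 1 left out Jun ran from -0.32 to 0.84 and Egr1 from -0.64 to 0.74. For the i-TERTci effect minus the ADR effect, Jun was -0.24 with limma voom and Nr4a2 -0.0321 with the block. With 1 left out Fos ran from -0.71 to 0.27, Jun from -0.48 to 0.45, Junb from -0.68 to 0.13, Egr1 from -0.20 to 0.64, Atf3 from -1.18 to 0.15, Ier3 from -0.68 to 0.0415 and Nr4a2 from -0.14 to 0.46.

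The labels do not say that a replicate number marks a shared source. Same-numbered deviations correlated at -0.12, 0.08 and -0.13 in the i-TERTci experiment, at -0.025 and 0.11 with ADR in TERT KO/KO kidneys, and at 0.03, 0.05 and 0.20 for ADR in TERT WT/WT mice. Between genotypes they correlated at 0.48 and 0.35 after ADR, over only 2 pairs, and at -0.46, 0.11 and -0.08 after saline. No comparison with 3 pairs had each above 0.1, so the numbers were not taken to pair the mice. With the replicate block 9 members were called with ADR in TERT KO/KO kidneys and 6 in TERT WT/WT kidneys, and of the members only Nr4a1 in TERT WT/WT mice lost its call (adjusted p = 0.0603). The numbers of all genes called with the block in these comparisons are not given. Where a library left out leaves 1 TERT KO/KO ADR mouse, that mouse is assumed to vary like the other groups. Counts limit Fosb and Nr4a3, at 6 to 18 and 8 to 28 raw counts in control libraries.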
